A study of Homo sapiens with 6 samples.

Results

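Interferon-stimulated genes are the antiviral effectors, sensors and regulators that cells switch on after interferon binds its receptor. The 54 examined here were chosen by symbol from a list of interferon-induced effectors, sensors and regulators, and all 54 of them stand among the 26364 genes of the authors' deposited table. RNA came from REH, a human B-cell precursor acute lymphoblastic leukaemia line, in 2 groups of 3 libraries from independent experiments. Cells of one group were transduced by lentivirus with a scramble hairpin, and cells of the other with a short hairpin RNA against STAT3 (shSTAT3). Both groups went through 3 days of puromycin selection and a dead cell removal step, and the labels name no interferon treatment of either. The labels name no second STAT3 hairpin and no rescue, so every difference below is that of this hairpin against the scramble.

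Type I and type III interferons act through the kinases JAK1 and TYK2, which lead to the assembly of ISGF3. This factor holds STAT2 and IRF9 and binds the interferon-stimulated response element (ISRE) in front of most genes of this class. Interferon-gamma acts through JAK1 and JAK2 and a shorter palindrome, the gamma-activated site (GAS), whose letters STAT3 dimers can also bind. Many of these genes keep a low level of transcription without added interferon.

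Promoter sequences are shown first, because the members are defined by a response that runs through them. RefSeq promoters on GRCh38.p14, each from 250 bases before to 50 bases after a transcription start, were matched to 43 of the 54 genes. Each was searched on both strands for the ISRE core (GAAA, any 2 bases, and GAAA again) and for TTCNNNGAA, the GAS core, which reads the same on both strands. An ISRE core stood in a promoter of 28 of the 43 genes (65.1%), against 4.19% of the 9060 tested genes with a promoter and 3.57% of all 35116 promoters. A GAS core stood in 12 of 43 (27.9%), against 8.60% of tested genes and 7.66% of all promoters, and in 3 of those genes (BST2, EPSTI1 and MX1) it overlapped an ISRE core upstream of the start. DHX58, GBP2, IFIT2, IFITM2, IRF7, LY6E, MX2, OAS2, OASL, UBA7 and USP18 were not matched.

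The windows below come from 10 genes whose transcripts differed between the groups, the first 5 from genes that were lower in shSTAT3 and the last 5 from genes that were higher. They were picked with the values known, to show neighbouring genes that moved apart and members with large changes. Each gives the ISRE core in capitals with up to 20 bases on either side, read 5′ to 3′ on the strand of the gene.
HERC5, chr4:88457025-88457074, plus strand: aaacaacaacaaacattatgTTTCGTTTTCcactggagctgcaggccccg
MX1, chr21:41431834-41431883, plus strand: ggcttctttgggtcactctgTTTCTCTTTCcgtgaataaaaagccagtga
IFI44, chr1:78649751-78649800, plus strand: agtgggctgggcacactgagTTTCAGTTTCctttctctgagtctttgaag
SAMD9, chr7:93118086-93118135, minus strand: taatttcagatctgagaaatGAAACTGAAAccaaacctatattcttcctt
PARP9, chr3:122564312-122564361, minus strand: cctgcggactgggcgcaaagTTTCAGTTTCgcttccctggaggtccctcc
PARP14, chr3:122680790-122680838, plus strand: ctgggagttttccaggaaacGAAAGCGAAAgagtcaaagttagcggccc
IFI44L, chr1:78620264-78620313, plus strand: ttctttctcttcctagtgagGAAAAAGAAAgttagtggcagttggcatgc
BST2, chr19:17405731-17405780, minus strand: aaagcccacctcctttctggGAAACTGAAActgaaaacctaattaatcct
IFITM3, chr11:320866-320915, minus strand: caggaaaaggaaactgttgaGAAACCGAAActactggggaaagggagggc
LGALS3BP, chr17:78979952-78980001, minus strand: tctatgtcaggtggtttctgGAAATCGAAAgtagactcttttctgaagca

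HERC5 held 3 such matches in one promoter, IFI44L, BST2 and IFITM3 held 2, and the others shown held 1. The 2 BST2 matches overlap, at 121 to 130 and 115 to 124 bases upstream. Those of HERC5 at 116 to 125 and 110 to 119 bases upstream overlap too. The IFI44L window occurs a second time, letter for letter, 91 bases closer to the start. The PARP9 core is also the only ISRE core in the promoter of DTX3L, which is transcribed from the other strand. Across all tested genes 21.3% were higher in shSTAT3 and 23.2% lower at an adjusted p under 0.05. Of the 28 members with an ISRE core 7 were higher and 8 lower, which is near those shares (median log2 fold change −0.08). Of the 15 without one 5 were higher and 2 lower (median 0.18). RNF213, ADAR, XAF1, UBE2L6 and SAMD9L were the higher genes without the core in these windows, and OAS1 and CMPK2 the lower ones. For the GAS core, 3 of 12 genes with it were higher and 3 lower, and 9 and 7 of the 31 without it.

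The comparison asked whether transcripts of this class move together or split when STAT3 is reduced. Of the 53 members with an adjusted p per the authors' deposited table, 13 rose and 11 fell at an adjusted p under 0.05, and 29 did not pass. The members called were 45.3% of those tested, against 44.5% of all 12061 tested genes. By direction, 24.5% of tested members rose against 21.3% of all tested genes, and 20.8% fell against 23.2%. Both shares were near the background. The median log2 fold change of the tested members was −0.02, against 0.0027 for all tested genes, and the median size of a change without regard to sign was 0.24 against 0.27. Members that rose included the membrane restriction factors BST2, IFITM1 and IFITM3, the large ligase RNF213 and the editing enzyme ADAR, whereas the ISG15 ligase HERC5, both MX genes, OAS1, OAS3 and the sensor IFIH1 fell.

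STAT3 itself, the target of the hairpin, stood at 29.8% of scramble in the deposited table, at a log2 fold change of −1.75 (95% limits −1.93 and −1.56). The table does not name its numerator, so a negative value was read as lower in shSTAT3 on the strength of STAT3 alone. It holds one mean over the 6 libraries, one fold change and one p for each gene, so the level in each library and the overlap of the groups cannot be given. Standard errors and 95% intervals were derived from the authors' fold change and p, and they hold only if both came from the same fit. The fold changes appear shrunken toward 0. Standard errors of the 53 tested members ran from 0.06 for ADAR to 0.33 for OASL. In RNA from a whole culture, fewer cells of a kind and less RNA per cell cannot be told apart.

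**Figure D1:**
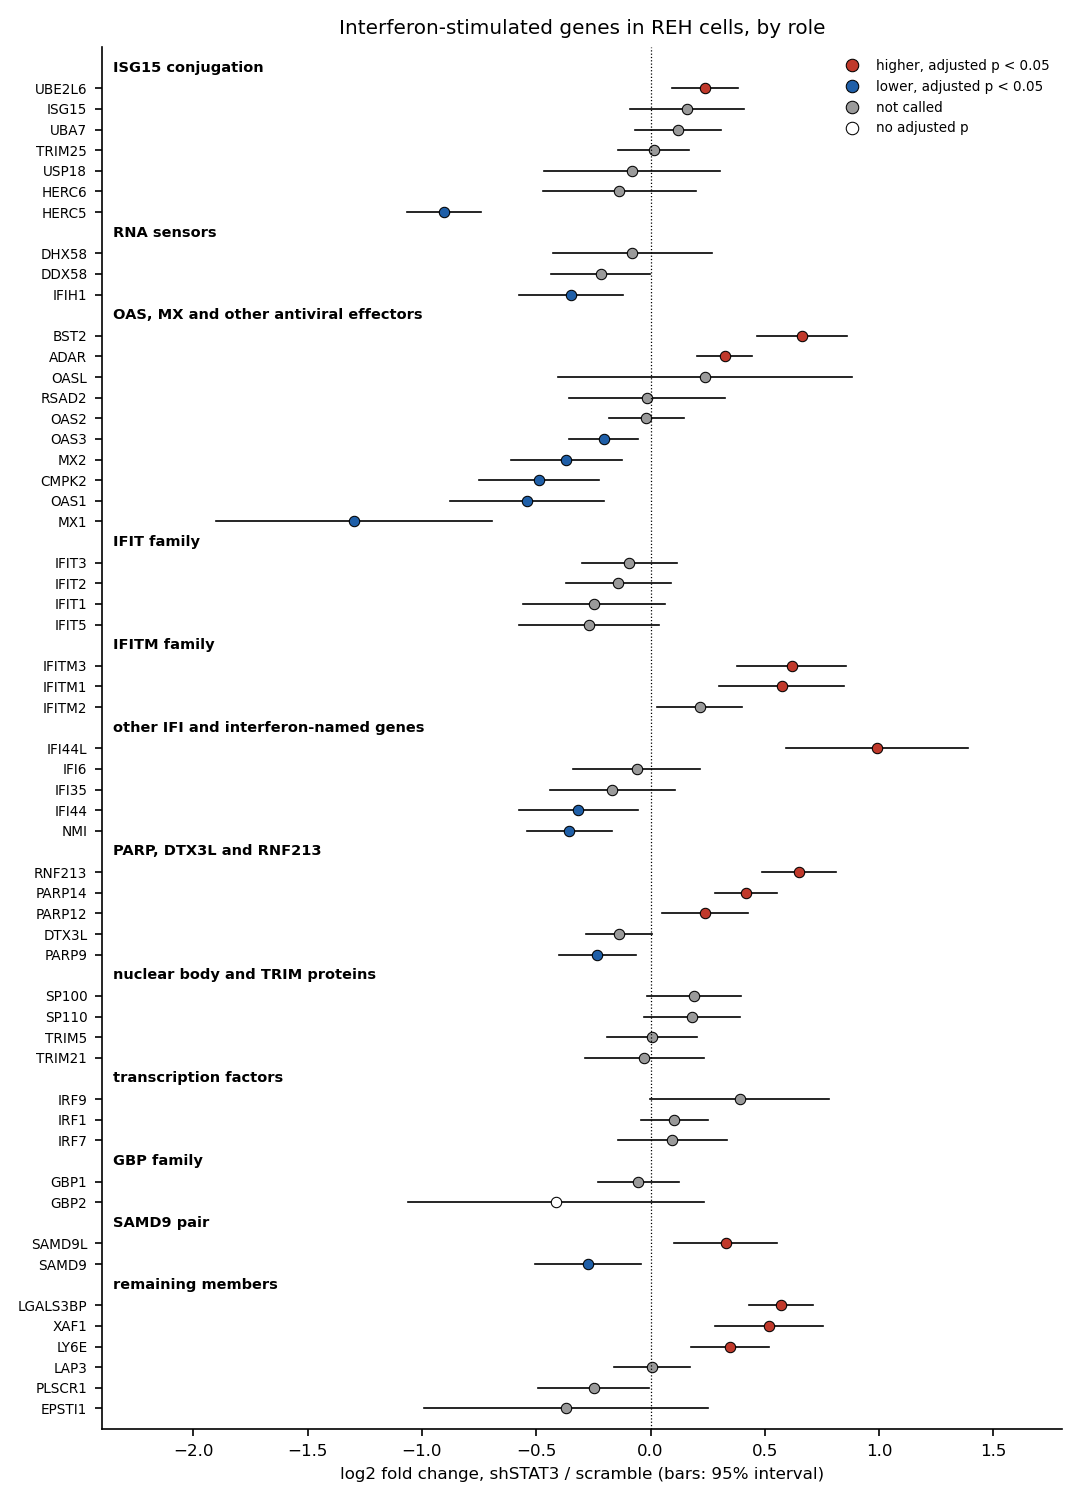
Log2 fold change, shSTAT3 over scramble, of each of the 54 genes (points) with its 95% interval (bars), grouped by role. The 13 red and 11 blue genes had an adjusted p under 0.05 per the authors' deposited table, and most roles hold genes on both sides of 0.

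Changes were mostly small. Among called members 6 reached 1.5-fold (4 higher, 2 lower), while 17.3% of all tested genes were called at that size, and MX1 was the 1 member past 2-fold. Of the 29 uncalled members, 26 had a 95% interval lying wholly within 1.5-fold in either direction, and the others were OASL, EPSTI1 and IRF9, at means of 14.7, 21.4 and 101 normalized counts. The 50 tested members with a mean normalized count of at least 50 were called in 23 cases (46.0%), against 48.1% of all tested genes above that mean. The count of lower members depended on the threshold. At an adjusted p under 0.01 the number of lower members was 7 in place of 11, against 18.2% of all tested genes.

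**Figure D2:**
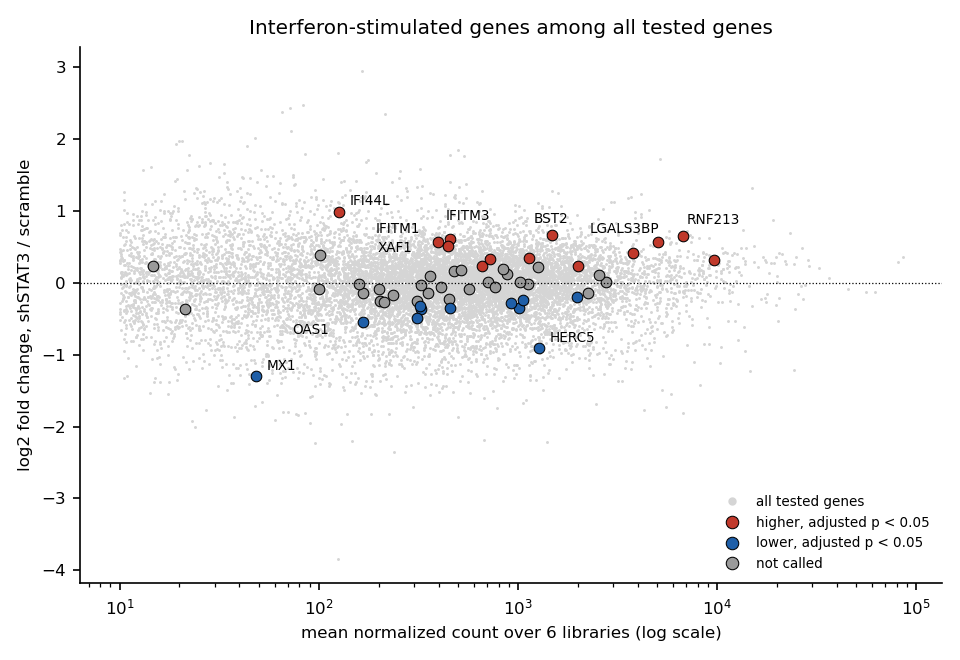
Mean normalized count over the 6 libraries (log scale) against log2 fold change for all 12061 tested genes (grey) and the 53 tested interferon-stimulated genes (coloured by call). The members lie inside the cloud of all tested genes, with MX1 lowest at −1.30 and IFI44L highest at 0.99.

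ISG15 conjugation is the ubiquitin-like pathway of the class, and its parts did not change together. ISG15 is activated by UBA7, passed to the conjugating enzyme UBE2L6, joined to target proteins mainly by the ligase HERC5 and removed by USP18. HERC5 had the smallest p of all members per the authors' deposited table, with a mean of 1279 normalized counts and 53.4% of the scramble level (log2 fold change −0.90 with 95% limits of −1.07 and −0.74, adjusted p = 1.28e-25). Ordered by p, it took rank 152 of the 12061 tested genes. UBE2L6, the enzyme one step upstream, rose to 118% of scramble (log2 fold change 0.24, adjusted p = 0.00454 in the deposited table). ISG15 itself was at 0.16 on the log2 scale and UBA7 at 0.12, with adjusted p of 0.315 and 0.323 from the authors. USP18 stood at −0.08 and HERC6, the neighbour and relative of HERC5, at −0.14. USP18 shares 23.4% of its 50-base words with transcripts of other genes, nearly all with USP41, so its count depends on how shared reads were assigned. TRIM25, a ligase that also assists RIG-I, was the uncalled member of highest mean, at 2766 normalized counts and a log2 fold change of 0.01 with 95% limits of −0.14 and 0.17, per the authors' deposited table.

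The RNA sensors all had negative fold changes, and 1 of 3 passed, beside 44.5% of all tested genes. IFIH1, which encodes the long double-stranded RNA sensor MDA5, fell to 78.5% of scramble (log2 fold change −0.35, adjusted p = 0.00778 in the deposited table). DDX58, which encodes RIG-I, was at −0.22 with an adjusted p of 0.0977 from the authors. DHX58, the gene of the regulatory helicase LGP2, was at −0.08 with an adjusted p of 0.746.

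Among the 10 direct antiviral effectors 5 fell, 2 rose and 3 were not called, beside 23.2% lower and 21.3% higher over all tested genes, and the difference from those shares was not tested. MX1, a dynamin-like GTPase, fell to 40.7% of scramble per the authors' deposited table (log2 fold change −1.30 with 95% limits of −1.90 and −0.69, adjusted p = 0.000126) from a low mean of 48.3 normalized counts. Its paralogue MX2, at a mean of 328, fell to 77.4% (log2 fold change −0.37, adjusted p = 0.00859). OAS1, a synthetase of the 2-5A that activates RNase L, fell to 68.7% of scramble per the authors' deposited table (log2 fold change −0.54 with 95% limits of −0.88 and −0.20, adjusted p = 0.00516). OAS3 fell less, to 86.8% (log2 fold change −0.20, adjusted p = 0.0212), and OAS2 stood at −0.02 with a 95% interval from −0.18 to 0.15. OASL, the relative without synthetase activity, had a mean of 14.7 normalized counts and a log2 fold change of 0.24 that did not pass.

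CMPK2, a mitochondrial nucleotide kinase, fell to 71.3% of scramble per the authors' deposited table (log2 fold change −0.49 with 95% limits of −0.75 and −0.23, adjusted p = 0.00103). RSAD2, which encodes viperin and lies beside CMPK2, was at −0.02 (95% interval −0.36 to 0.33). BST2 encodes tetherin, which holds budding virions at the cell surface. It rose to 158% of scramble per the authors' deposited table (log2 fold change 0.66 with 95% limits of 0.47 and 0.86, adjusted p = 5.48e-10). ADAR, which edits adenosine to inosine in double-stranded RNA, rose to 125% at the highest mean of all members, 9664 normalized counts (log2 fold change 0.32 with 95% limits of 0.21 and 0.44, adjusted p = 7.1e-07).

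The IFIT genes encode cytosolic proteins that bind viral RNA, and none of the 4 passed, beside 44.5% of all tested genes. IFIT1, IFIT2, IFIT3 and IFIT5 were at −0.25, −0.14, −0.09 and −0.27 on the log2 scale, with adjusted p between 0.155 and 0.502 from the authors. All 4 intervals contained 0 and lay within 1.5-fold.

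The IFITM genes encode small membrane proteins that block virus entry, and their fold changes were all positive. IFITM3 and IFITM1 rose to 153% and 149% of scramble per the authors' deposited table (log2 fold changes 0.62 and 0.57, adjusted p = 2.69e-06 and 0.000194). IFITM2, at a mean of 1263 normalized counts, missed the threshold by a little, at 0.21 with an adjusted p of 0.0504. Of the 50-base words of IFITM1, IFITM2 and IFITM3, 32.0%, 34.1% and 17.4% also occur in transcripts of other genes in GENCODE 29. Annotated exons of IFITM1 and IFITM2 overlap on the same strand, over 32.5% and 22.7% of their exonic lengths. An opposite-strand transcript, AC136475.5, covers 21.3% of the exonic length of IFITM3. The values of the IFITM genes are therefore uncertain as to which gene gave the reads.

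Genes of the ADP-ribosylation and ubiquitin group moved both ways. RNF213, a very large ubiquitin ligase that coats intracellular pathogens, rose to 157% of scramble per the authors' deposited table (log2 fold change 0.65 with 95% limits of 0.49 and 0.81, adjusted p = 9.83e-14). PARP14, an ADP-ribosyltransferase, rose to 133% (log2 fold change 0.42 with 95% limits of 0.28 and 0.55, adjusted p = 2.37e-08), and PARP12 rose to 118% (log2 fold change 0.24, adjusted p = 0.0304). PARP9 fell to 85.1% (log2 fold change −0.23, adjusted p = 0.018). DTX3L, the ubiquitin ligase that works as a complex with PARP9, stood at −0.14 with an adjusted p of 0.119 and a mean of 2258 normalized counts in the deposited table.

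Transcription factors and nuclear body genes did not pass in any case, where 44.5% of all tested genes did, and this difference was not tested. IRF1, the factor downstream of interferon-gamma, was at 0.10 (95% interval −0.04 to 0.25) with a mean of 2554 normalized counts per the authors' deposited table. IRF7, which drives interferon-alpha genes, was at 0.09, and IRF9, the DNA-binding part of ISGF3, at 0.39 with an adjusted p of 0.103. A read-through gene, AL136295.5, covers 48.4% of the exonic length of IRF9, and the opposite-strand gene C5orf56 covers 22.0% of that of IRF1. The nuclear body genes SP100 and SP110 were at 0.19 and 0.18, and the ligases TRIM5 and TRIM21, of which the first restricts retroviral capsids and the second binds antibody-coated virus, at 0.01 and −0.03.

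LGALS3BP, a secreted glycoprotein that binds galectin-3, had the smallest p of the members that rose per the authors' deposited table (mean 5060 normalized counts, log2 fold change 0.57 with 95% limits of 0.43 and 0.71, adjusted p = 4.34e-14). XAF1, which antagonises the caspase inhibitor XIAP, and LY6E, a lipid-anchored surface protein, rose to 143% and 127% of scramble (log2 fold changes 0.52 and 0.35, adjusted p = 0.0001 and 0.000315). An annotated transcript on the opposite strand, PRAL, covers 38.3% of the exonic length of XAF1, and the library kit does not mark strand. NMI, which binds N-myc and STAT proteins, fell to 78.2% per the authors' deposited table (log2 fold change −0.36 with 95% limits of −0.54 and −0.17, adjusted p = 0.000706). PLSCR1, a membrane scramblase, was at −0.25 with an adjusted p of 0.092, and the aminopeptidase LAP3 was at 0.01. IFI6, IFI35 and EPSTI1 were at −0.06, −0.17 and −0.37 and did not pass. The guanylate-binding GTPase GBP1 stood at −0.05, and GBP2, with a mean of 6.71 normalized counts, is the 1 member without an adjusted p (log2 fold change −0.41).

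Members often lie beside a relative in the genome. In GENCODE 29, 27 members fall into 16 neighbouring pairs less than 200 kb apart. A pair joins a member only to the next member on the chromosome, so other members within that distance were not paired. Fold changes had one sign in 13 pairs and opposite signs in 3. Some genes stand in several pairs, and IFITM2 with IFITM1, CMPK2 with RSAD2 and PARP9 with DTX3L overlap. The same share over neighbouring genes of the whole genome was not computed, so these counts are a description only. Of all tested genes 44.5% were called. Both genes were called in 5 pairs, in the same direction in 3 (OAS1 with OAS3, MX2 with MX1, IFITM1 with IFITM3) and in opposite directions in 2.

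The first of the opposite pairs was IFI44L and IFI44, which lie 3650 bases apart in tandem on chromosome 1 (78619922 to 78646145 and 78649796 to 78664078, plus strand). IFI44L, which is related to IFI44 and serves in many interferon signatures, rose to 199% of scramble per the authors' deposited table (log2 fold change 0.99 with 95% limits of 0.59 and 1.39, adjusted p = 8.01e-06). IFI44 fell to 80.3% (log2 fold change −0.32 with 95% limits of −0.58 and −0.06, adjusted p = 0.041). The annotated transcripts of the pair share no 50-base word with each other or with any other gene. The call of IFI44 was lost when p-values were adjusted over every gene that has one (adjusted p = 0.0594).

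The second was SAMD9 and SAMD9L, 12031 bases apart on chromosome 7 (93099513 to 93118023 and 93130055 to 93148369, minus strand). Both encode proteins that restrict poxviruses and growth. SAMD9L rose to 126% of scramble per the authors' deposited table (log2 fold change 0.33 with 95% limits of 0.10 and 0.55, adjusted p = 0.0126), while SAMD9 fell to 82.7% (log2 fold change −0.27 with 95% limits of −0.51 and −0.04, adjusted p = 0.0459). They too share no 50-base word with each other or with another gene. Adjusted over every gene with a p-value, the call of SAMD9 was lost (adjusted p = 0.0664).

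At 2 further loci members stood apart, though no consecutive pair there had both genes called. HERC6 and HERC5, 14005 bases apart on chromosome 4, had intervals that did not overlap (−0.47 to 0.20 and −1.07 to −0.74), and the difference between them was not tested. On chromosome 3, PARP9 and DTX3L overlap at their starts and were both below 0, while PARP14, 105414 bases beyond DTX3L, rose. PARP9 and PARP14 also lie within 200 kb but are not consecutive. Both were called, in opposite directions (−0.23 and 0.42). By contrast the 4 IFIT genes on chromosome 10 lay between −0.27 and −0.09, and SP110 and SP100 on chromosome 2 were at 0.18 and 0.19.

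**Figure D3:**
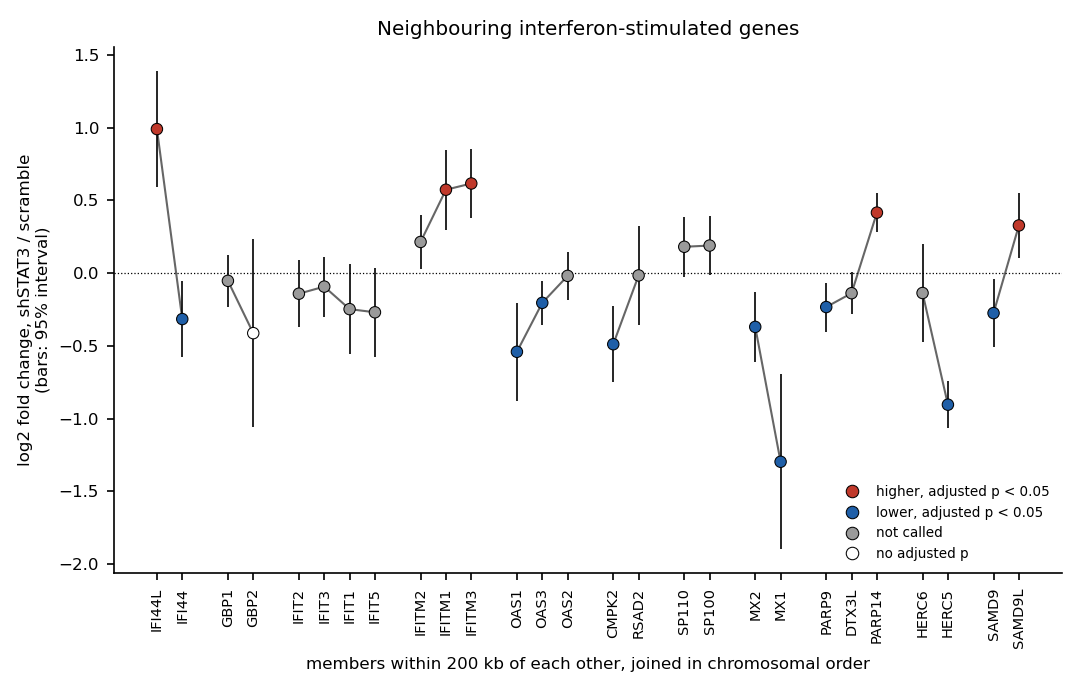
Log2 fold change with 95% interval (bars) of the 27 members that have another member within 200 kb, joined by lines in chromosomal order. The lines cross 0 at IFI44L with IFI44, at PARP14 and at SAMD9 with SAMD9L.

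Levels were compared per length, as the mean normalized count over the 6 libraries divided by kilobases of annotated exon. LGALS3BP (1412 per kb), BST2 (1327), ADAR (997) and UBE2L6 (917) were the 4 highest, and all of them rose. Members that rose had a median of 363 per kb (12.4 to 1412), those that fell 118 per kb (5.60 to 290), and uncalled members 119 per kb (4.19 to 818). The ranges overlap, and small changes are called more readily at high counts. The same medians over all called genes were not computed, so this is a description only. MX1 at 5.60 per kb and IFI44L at 12.4 per kb, the members with the largest fall and rise, were among the least abundant. GBP2 was lowest at 1.07 per kb.

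**Figure D4:**
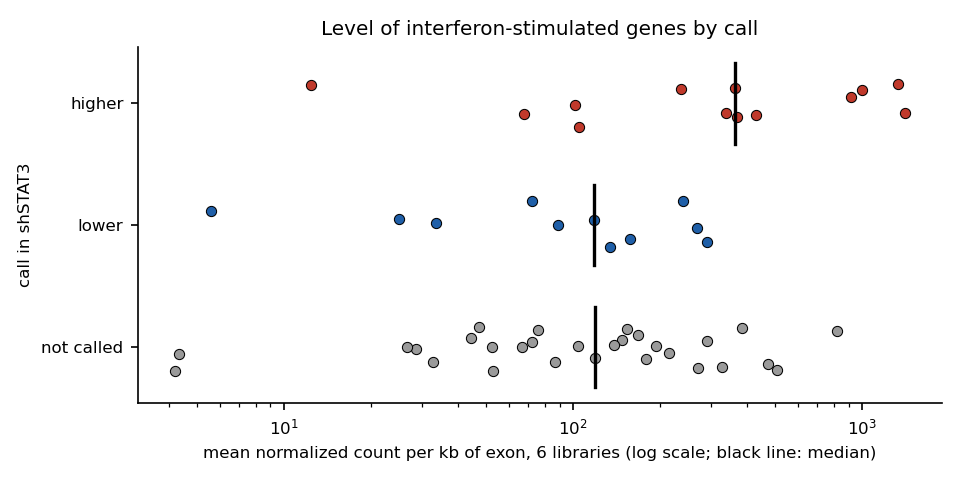
Mean normalized count per kilobase of annotated exon (log scale) for the 13 members that rose, the 11 that fell and the 29 not called, with the median of each as a black line. The medians were 363, 118 and 119 per kb and the ranges overlap.

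Genes upstream of this class were counted in the same way from lists set out by symbol. Of the 21 interferon genes, 20 had a mean of 0 and IFNL1 a mean of 0.176 normalized counts, so no interferon transcript was tested. Among 10 tested receptors, JAK kinases and ISGF3 partners 2 rose, 1 fell and 7 did not pass, where all tested genes gave 21.3% higher and 23.2% lower. JAK1, shared by all interferon receptors, rose by 0.36 on the log2 scale, and STAT2 rose by 0.28 (adjusted p = 5.96e-05 and 0.00603 per the authors' deposited table). IFNAR1, a chain of the type I receptor, fell to 66.3% of scramble (log2 fold change −0.59, adjusted p = 3.88e-07).

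Of 20 tested nucleic acid sensing genes 5 rose and 6 fell, shares near the 21.3% and 23.2% of all tested genes, with a median of −0.06. IRF5, a factor downstream of Toll-like receptors, fell to 41.4% of scramble per the authors' deposited table (log2 fold change −1.27, adjusted p = 1.56e-10). The TBK1 adaptors AZI2 and TANK were at −0.89 and −0.36, the kinase IRAK4 at −0.70, the DNA sensor cGAS (MB21D1) at −0.61 and TLR7 at −1.15 from a mean of 12.1, all called. MAVS, the mitochondrial adaptor of RIG-I and MDA5, rose to 142% (log2 fold change 0.51, adjusted p = 2.08e-11). TLR3, STING (TMEM173), IRAK1 and the kinase PKR (EIF2AK2) also rose, by 0.42, 0.39, 0.32 and 0.26 on the log2 scale.

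Among negative regulators, 3 of the 11 tested were higher, 3 lower and 5 uncalled, with a median near 0. The shares, 27.3% in each direction, were near the 21.3% higher and 23.2% lower of all tested genes. PIAS3, PIAS4 and the phosphatase PTPN2 rose, at 0.41, 0.35 and 0.33, and the phosphatases PTPN6, PTPN11 and PTPN1 fell, at −0.35, −0.27 and −0.24 per the authors' deposited table. SOCS1 stood at 0.00 with a mean of 33.2 normalized counts.

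A list of 41 other interferon-induced genes, which repeats 4 genes of the lists above, held more genes that rose than fell. Of 34 tested, 14 (41.2%) rose and 2 (5.88%) fell, with a median log2 fold change of 0.12, beside 21.3% and 23.2% of all tested genes. The list was chosen with earlier results of these data known, and the difference from those shares was not tested. ZNFX1, a helicase that senses viral RNA at mitochondria, rose to 189% of scramble per the authors' deposited table (log2 fold change 0.92, adjusted p = 2.05e-30). The exonuclease ISG20 rose by 0.99, PARP10 by 0.68, the caspase gene CASP1 by 0.71 and the apolipoprotein genes APOL1 and APOL2 by 0.61 and 0.36. DDX60L, TRIM22, GBP3, ZC3HAV1, SHISA5 and HELZ2 rose by 0.59, 0.50, 0.43, 0.42, 0.36 and 0.32, and STAT2 and EIF2AK2 as above. The 2 that fell were TDRD7 and PHF11, at −0.50 and −0.32. The authors' deposited table leaves the p-value of IFI27 and IRF8 empty, as it does for 74 genes with a fold change in all, and none of the 54 members is among those.

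**Figure D5:**
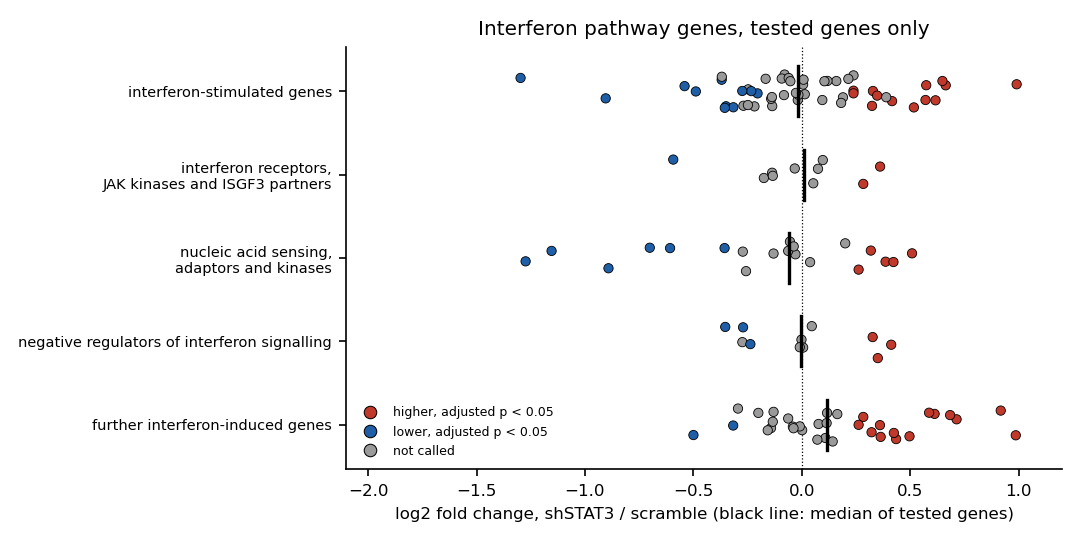
Log2 fold change of the tested genes of each list (points coloured by call) with the median of the list as a black line. The 53 interferon-stimulated genes are centred at −0.02 and the list of further interferon-induced genes at 0.12.

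Lineage markers stood beside these results as follows. Of 10 B-cell precursor markers 9 were tested and had means from 1289 to 20516 normalized counts, while VPREB1 had a mean of 0. Plasmacytoid dendritic cells, which make much interferon, were represented by 6 markers, of which CLEC4C and GZMB had a mean of 0, LILRA4 a mean of 0.171 and IL3RA a mean of 4.56. The other two were tested. TCF4, at a mean of 2688 normalized counts, did not pass, and NRP1, at a mean of 199, fell to 74.1% of scramble per the authors' deposited table (log2 fold change −0.43, adjusted p = 0.0202). Of 10 monocyte and macrophage markers, with means from 0.442 to 410, 4 were tested. CST3 and CSF1R fell, at −0.75 and −0.81 per the authors' deposited table, ITGAM rose, at 0.33, and CD68 did not pass. LYZ, S100A8 and S100A9, at means of 16.0, 9.25 and 22.2 normalized counts, had a fold change but no p-value. Of 6 T cell markers CD3D and CD3G had a mean of 0 and CD4, the 1 tested, did not pass. COL1A1 and PDGFRB, the 2 tested fibroblast and epithelial markers of 6, both fell, at −0.75 and −0.27, and the other 4 had a mean of 0. Over all tested genes 44.5% were called. The part of other cell types in the members' values was not tested.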

How the data were processed

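RNA was measured in 6 REH libraries, 3 per group, made with the TruSeq RNA v2 kit per the labels' protocols. Tools listed in the submitters' processing notes, without order or settings, are DESeq2, featureCounts, Bowtie2, Trimmomatic, Picard and bcl2fastq 2.19, and the build is hg38. The annotation, the model and whether strand was used were not given in the sources used here. Per the file headers, the authors' deposited table holds 3 kinds of value: a normalized signal (the mean of counts divided by size factors), a log2 fold change, and a p-value with its adjusted form. It holds no value per library, so the depth of each library is not shown, and the means sum to 11485068 normalized counts. The fold changes appear shrunken, since the 1353 genes with a mean under 0.2 lie within 0.0593 of 0.

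The 12061 genes with an adjusted p are called tested, and those with an adjusted p under 0.05 are called. The Benjamini-Hochberg adjustment was recomputed over these 12061 genes and differed from the deposited values by at most 2.87e-07. The authors' adjustment therefore ran over these genes and not over all 17701 that have a p-value. Dividing a fold change by the normal quantile that matches its p gave the standard error. This step was run on simulated data whose p-values came from the same normal formula, so only the calculation was checked. The simulated fold changes were not shrunken, so the run does not show that the intervals hold for shrunken ones. The genes described in full are STAT3, the 5 members of smallest adjusted p in each direction and the 5 uncalled members of highest mean, and the other members are given by value. Members and lists were chosen with earlier results of these data known. No list was tested as a set. A gene of the pathway lists is counted there but not reported here by name.

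All 54 members matched 1 gene of GENCODE 29 (GRCh38), from which positions, exonic lengths, overlaps and shared 50-base words were taken. The alternatives were other thresholds, a minimum fold, a minimum mean, adjustment over every gene with a p-value, and centring. Software was scipy 1.17.1, pandas 2.3.3, numpy 2.4.6 and, for plots, matplotlib 3.10.9, under Python 3.11.15.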

Additional observations from a re-analysis of the deposited data

How the results depend on the processing

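Of the 24 called members, 18 remained at an adjusted p under 0.01, with 7 lower in place of 11. Over all tested genes 18.2% were lower at that threshold. Requiring at least a 1.5-fold change left 6 members, 4 higher and 2 lower. A mean of at least 50 kept 23 and adjustment over the 17701 genes with a p-value kept 22, the 2 lost being IFI44 and SAMD9. The threshold of 0.1 gave 27. Shares of all tested genes called in either direction at 0.01 and at 0.1 were not computed. The median of the members lay between −0.0229 and −0.0171 under the other filters and after centring on the median of all tested genes. No paired analysis was possible because the table holds no values per library, and for the same reason leaving out single replicates was not run. Among uncalled members, OASL and EPSTI1, with means of 14.7 and 21.4 normalized counts, have intervals that reach past 1.5-fold, as does IRF9 at a mean of 101.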

Other observations

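Immunoproteasome and proteasome activator genes, which interferon-gamma also induces, were looked at after the other values had been seen. In the authors' deposited table PSME2 rose by 0.21 on the log2 scale (adjusted p = 0.0237). PSMB8, PSMB9, PSMB10 and PSME1 were at −0.16, 0.15, 0.07 and −0.08 and did not pass, with adjusted p of 0.055, 0.141, 0.533 and 0.308.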
